A study of Mus musculus with 16 samples.

Results

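The genes described here drive and accompany cell division: 40 cell cycle and proliferation genes, found by symbol among the 46078 genes of the table of reads per gene, from entry into the cycle to its exit. All 40 passed the filter on low counts in every comparison. The libraries came from the ileum mucosa of 16 C57Bl/6 mice in 4 groups of 4, Male WT, Male Slfn3KO, Female WT and Female Slfn3KO. The study asked what loss of Slfn3, a Schlafen family gene linked to epithelial differentiation, does to the mucosa in each sex. The labels give an age of 8 weeks for every mouse, whereas the methods of the study give an older range. The Slfn3KO mice were whole-body knockouts from another laboratory and the WT mice were littermates, so Slfn3 was deleted in epithelial and immune cells alike. Slfn3 itself was between 0 and 0.0812 CPM (counts scaled to the library total) in the 8 Slfn3KO libraries and between 0 and 0.654 CPM in the 8 WT libraries, so it was at the edge of detection in both genotypes. In the WT libraries numbered 3 and 4 of both labelled sexes, Xist and the Y-linked gene Ddx3y went against the sex label, and results are therefore given with and without these 4 libraries. Sex means the labelled sex throughout. Library totals were between 20823279 and 30813117 counted reads before this scaling, and after it 3 reads were between 0.102 and 0.150 CPM. A group value written as mean ± SD is over its 4 mice. The p-values measure the spread between these mice only.

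A cell that enters the cycle makes cyclin D, which with Cdk4 relieves the block on E2F transcription factors. E2F then switches on cyclin E, the licensing factors that load the Mcm helicase onto origins, and the enzymes that make deoxynucleotides. Later, the MuvB complex with B-Myb and Foxm1 switches on cyclin B, the mitotic kinases and the spindle proteins. In the ileum the dividing cells lie in the crypts, where Lgr5 stem cells sit at the base between Paneth cells and their daughters divide on the way to the villus. B cells in the germinal centres of lymphoid follicles divide as well, so Cd79a, a subunit of the B cell receptor, was read beside the members. In bulk mucosa, fewer dividing cells and less RNA per dividing cell cannot be told apart.

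The promoters were searched for the letters of both waves of transcription, and 5 of them are shown because they hold the letters of 1 wave or of both. Each stretch is the 150 bases before the annotated start, 5′ to 3′ on the strand of the gene, taken from RefSeq on GRCm38.p6. Capitals mark the letters of an E2F site (TTTNNCGC with C or G at each N), of a cell cycle homology region or CHR (TTTGAA or TTCGAA), which MuvB binds, and of a CCAAT box, on either strand.
Mcm6: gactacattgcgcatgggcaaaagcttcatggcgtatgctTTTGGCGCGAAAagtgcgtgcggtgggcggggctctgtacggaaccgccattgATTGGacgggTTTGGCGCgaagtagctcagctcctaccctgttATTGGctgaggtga
Mcm5: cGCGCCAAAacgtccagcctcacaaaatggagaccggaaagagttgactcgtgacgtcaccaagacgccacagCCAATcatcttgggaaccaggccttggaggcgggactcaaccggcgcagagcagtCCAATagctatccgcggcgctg
Cdk1: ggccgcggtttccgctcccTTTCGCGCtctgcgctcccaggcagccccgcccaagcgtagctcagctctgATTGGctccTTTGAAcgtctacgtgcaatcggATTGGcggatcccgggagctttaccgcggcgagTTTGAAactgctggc
Top2a: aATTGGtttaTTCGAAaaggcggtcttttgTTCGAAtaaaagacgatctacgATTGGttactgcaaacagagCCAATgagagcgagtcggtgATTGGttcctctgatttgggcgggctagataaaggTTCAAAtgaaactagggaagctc
Mki67: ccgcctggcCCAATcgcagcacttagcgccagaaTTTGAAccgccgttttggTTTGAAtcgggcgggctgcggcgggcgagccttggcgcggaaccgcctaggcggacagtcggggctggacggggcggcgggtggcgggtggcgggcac
The stretch of Mcm6, a subunit of the replicative helicase, is chr1:128359706-128359855 on the minus strand and holds 3 E2F matches, among which a pair overlaps on opposite strands. That of Mcm5, another helicase subunit, is chr8:75109359-75109508 on the plus strand and holds 1 E2F match. The stretch of Cdk1, the kinase of mitosis, is chr10:69352913-69353062 on the minus strand and holds 1 E2F match and 2 CHR matches. Top2a, the topoisomerase that untangles sister chromosomes, has chr11:99024190-99024339 on the minus strand with 3 CHR and 4 CCAAT matches. Mki67, which coats mitotic chromosomes and encodes the proliferation marker Ki-67, has chr7:135716380-135716529 on the minus strand with 2 CHR matches.

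RefSeq promoters of 300 bases, from 250 before the start to 50 after it, were matched for 30 of the 40 genes, which have 31 such promoters. E2F letters stood in 6 of 9 promoters of the replication licensing genes (66.7%) and in 0 of 8 of the spindle and exit genes. They stood in 0 of 4 promoters of the deoxynucleotide supply genes, in 1 of 4 of the G1 and S phase entry genes, not in that of Ccne1, and in 1 of 6 of the G2 and mitosis entry genes, against 2.26% of 32851 mouse promoters of this length. CHR letters stood in 7 of 8 promoters of the spindle and exit genes (87.5%), in 4 of 6 of the G2 and mitosis entry genes (66.7%) and in 2 of 9 of the licensing genes (22.2%), against 19.2% of all promoters. CCAAT boxes stood in 71% of the members' promoters and in 37.4% of all. Other cell cycle genes, chosen by function, were split in the same manner. Their S phase list held E2F letters in 40.6% and CHR letters in 31.2% of 32 promoters, and their mitosis list held them in 2.94% and 76.5% of 34 promoters. A match is a description of these letters and shows no binding.

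Expression of the 40 genes moved up and down together across the 16 mice. Mki67 was followed closely by the other members, with Pearson's r over 0.9 in 27 of 39 and a median of 0.938. The relation passed the permutation test in 38 of 39 (100000 resamples, two-sided, adjusted over the 39). The median r was 0.934 within WT, 0.954 within Slfn3KO and 0.866 without the 2 libraries farthest from the median of Mki67. Ccne2, 1 of the pair of cyclin E genes, went the other way, with r of -0.42 and rho of -0.45 (permutation p = 0.107 and p = 0.0839). Cdt1, a licensing factor, Ccnd1, the cyclin of the crypt's response to Wnt, and Pcna, the sliding clamp of the replication fork, followed less closely, with r of 0.65, 0.70 and 0.72.

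The mean of the 40 genes on the log2 CPM scale was lowest in Female WT 1, at 3.31, and next lowest in Male WT 4, at 3.49. It was highest in Female Slfn3KO 1, at 5.07, and next in Female Slfn3KO 2, at 4.86. Female WT 1 had the lowest level of 30 of the 40 genes, and Female Slfn3KO 1 had the highest level of 32. In the group labelled Female WT the means were 3.31, 4.21, 4.72 and 4.10 in mice 1 to 4, and in Female Slfn3KO they were 5.07, 4.86, 4.50 and 4.64. In Male WT they were 4.76, 4.53, 4.43 and 3.49, and in Male Slfn3KO 4.09, 4.03, 4.47 and 4.14. The spread between mice was larger in WT than in Slfn3KO in each labelled sex, which was not tested. The SDs were 0.582 and 0.251 in females and 0.560 and 0.195 in males. Both WT groups hold the libraries 3 and 4, where Xist and Ddx3y went against the label, and SDs without them were not computed. Over both sexes the SD was 0.542 in WT and 0.377 in Slfn3KO.

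**Figure D1:**
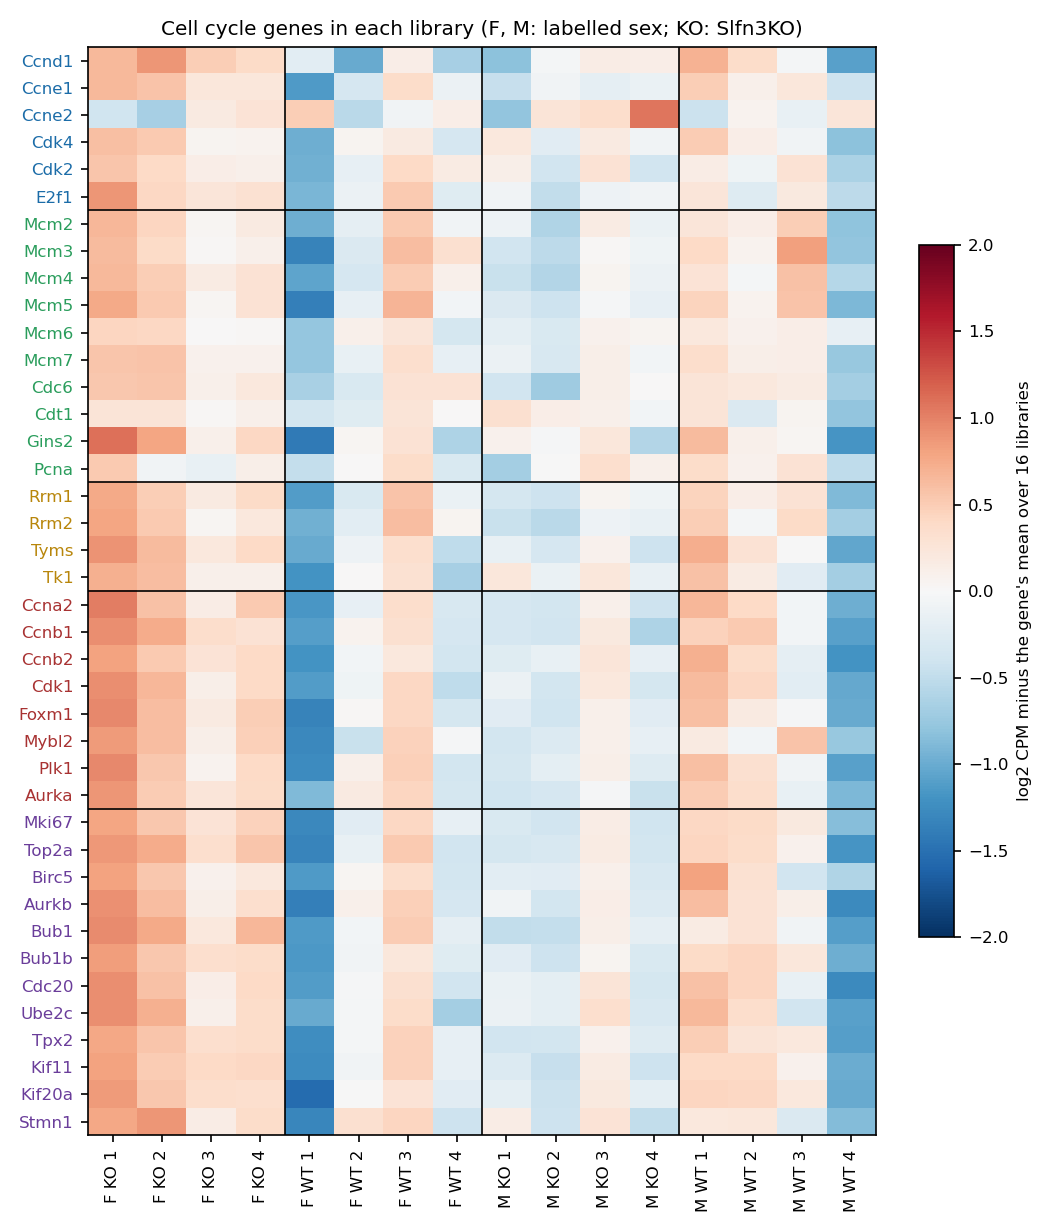
Level of each of the 40 genes (rows, by role from G1 entry at the top to spindle and exit at the bottom) in each of the 16 libraries (columns), as log2 CPM minus the gene's mean over the libraries. Female WT 1 and Male WT 4 are blue in nearly every row and Female Slfn3KO 1 and 2 are red, while Ccne2 runs against the other genes.

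Per length of transcript, the most abundant member was Ccnd1 at 34.7 ± 13.2 RPKM (CPM per kilobase of exon; SD, n = 16). Cdk4, its kinase partner, was at 18.6 ± 5.03 RPKM (SD, n = 16) and Ccnb2, a mitotic cyclin, at 17.8 ± 6.22 RPKM (SD, n = 16). The least abundant were Cdc6, which loads the helicase, at 1.14 ± 0.302 RPKM (SD, n = 16), and Mybl2, which encodes B-Myb, at 1.27 ± 0.444 RPKM (SD, n = 16). Reads of 50 bases from 6 members may be shared with near copies, since over 10% of their 50-base stretches occur in other genes: Ccnb1 (23.4%, mostly its pseudogene Ccnb1-ps), Mybl2 (19.3%), Pcna (19.1%), Stmn1 (18.9%), Mcm7 (18.1%) and Cdc20 (10.4%). Their levels are the less certain ones.

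Over all 16 mice the genes were slightly higher in Slfn3KO, and none passed a test. The log2 fold change of Slfn3KO over WT was above 0 in 39 of 40 genes with a median of 0.22, against a median of -0.0037 over 14822 genes tested. Mcm3 was the exception at -0.075. At an adjusted p below 0.05 and a change of at least 1.5-fold (edgeR quasi-likelihood test with sex as covariate, Benjamini-Hochberg over all genes), 0 of 40 genes were called, as were 0% of all genes. At an unadjusted p below 0.05, 0 members were higher and 0 lower, against 4.84% and 7.1% of all genes. DESeq2 called 54 genes of the whole table and 0 members. The smallest adjusted p among the members was 0.451, that of Cdt1. With the level of Lgr5 as a further covariate the direction turned, with a median of -0.32. In that fit, at an unadjusted p below 0.05, 3 members were lower (Aurka, Birc5 and Stmn1), against 2.79% of all genes. At that p 1 member was higher (Ccne2), against 1.99%. Lgr5 itself went with genotype in females, with every Slfn3KO mouse above every WT mouse. The covariate therefore takes up part of any genotype difference. Without the WT libraries 3 and 4 the median was 0.18 and 1 member, Cdt1, was higher at an unadjusted p below 0.05 (0.0281) and none lower, against 2.7% and 3.1% of all genes.

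The comparison within each labelled sex gave opposite directions. In females, 39 of 40 genes were higher in Slfn3KO than in WT, with a median log2 fold change of 0.65, and 14 of 40 were higher and 0 lower at an unadjusted p below 0.05, against 8.58% and 8.56% of all genes. None passed at the adjusted threshold, where 0% of 14064 genes were called by edgeR, with the smallest adjusted p of a member at 0.236 (Ccnd1). DESeq2 called 506 genes in females and 1 of them was a member, Ccnd1. Markers of other cells moved in the same comparison, and their part in it was not tested. At an unadjusted p below 0.05 in females, 8 of 8 Paneth cell genes (median 1.64) and 8 of 10 crypt base genes (median 0.93) were higher, while 10 of 10 B cell and follicle genes were lower (median -3.59). All 10 villus enterocyte genes were below 0 (median -0.77), with Fabp1, Apoa4 and Apoa1 past that p, and 6 tested smooth muscle genes had a median of 1.55, with Actg2 past it. In males, 35 of 40 genes were lower in Slfn3KO, with a median of -0.22, and 0 were lower or higher at an unadjusted p below 0.05, against 1.98% and 1.86% of all genes. Of 14124 genes tested in males, 0% were called. No marker gene of these 5 cell types passed that p in males, where the medians were 0.46 for Paneth cells, 0.43 for the crypt base, -2.39 for B cells, 0.02 for villus enterocytes and -0.77 for smooth muscle. The change in females minus that in males had a median of 0.88 and was above 0 in 38 of 40 genes, and 11 of 40 reached an unadjusted p below 0.05 upward, against 5.8% of all genes upward and 5.26% downward, with 0% of all genes called and a smallest adjusted p of 0.441 among the members.

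Single libraries moved these counts, and as the members rose and fell together, the counts are not of independent genes. The count of 14 in females became 1 (Ccnd1) without Female Slfn3KO 1, 9 without Female WT 2 and 34 without Female WT 3, against 3.9%, 7.68% and 13.2% of all genes. It became 3 without Female Slfn3KO 2 and 3 without Female WT 4, in both cases Ccnd1, Ccnb2 and Bub1b, against 3.74% and 4.78% of all genes. Without Male WT 4, 19 of 40 genes were lower in males at an unadjusted p below 0.05, against 4.09% of all genes. The count of 11 for the difference between the sexes became 1 (Bub1b) without Male WT 1, 32 without Female WT 3 and 30 without Male WT 4, against 3.52%, 10.8% and 9.88% of all genes. It became 3 without Female Slfn3KO 1 (Ccnd1, Ccne1 and Bub1b), 4 without Male Slfn3KO 2, Male Slfn3KO 4 or Male WT 2, and 5 without Female WT 1, Female WT 4 or Male Slfn3KO 1, against between 2.8% and 4.1% of all genes in these 7 fits. Ccnd1, Ccne1, Ccna2 and Bub1b were among the genes in each of these sets of 4 and 5. It became 6 without Female Slfn3KO 2 and 7 without Female WT 2, against 3.59% and 4.16%.

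**Figure D2:**
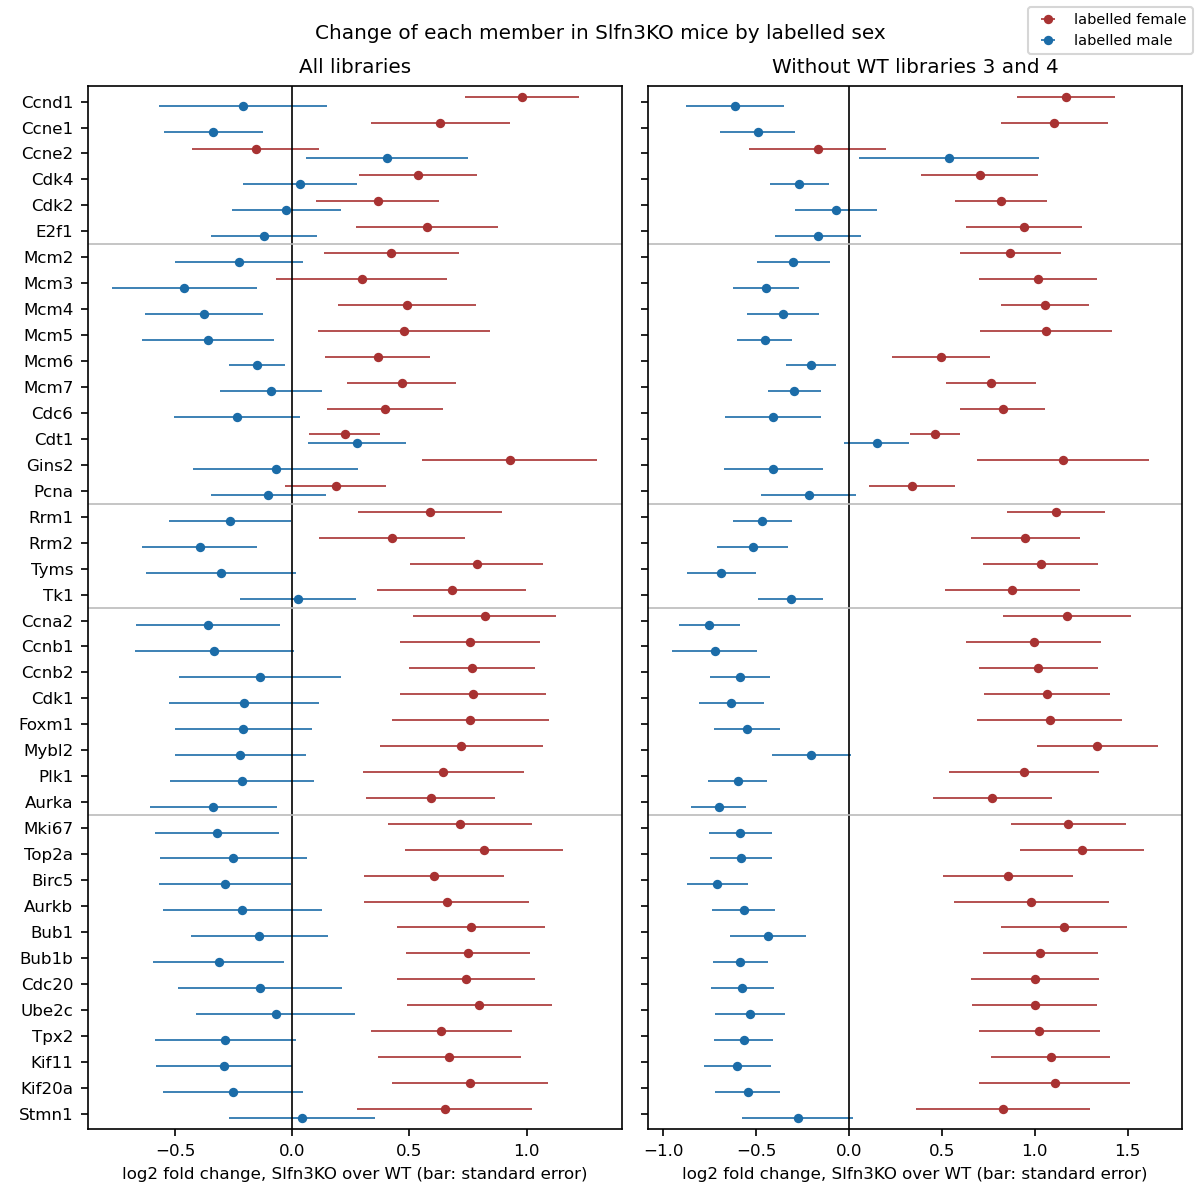
Log2 fold change of Slfn3KO over WT for each of the 40 genes (rows, by role) in labelled females (red) and labelled males (blue), with the standard error of the fit as bars, over all libraries at left and without the WT libraries 3 and 4 at right. Medians are 0.65 in females and -0.22 in males at left, and 1.01 and -0.50 at right.

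Leaving out the WT libraries 3 and 4, the difference between the sexes was larger and some genes passed, with 2 WT mice left in each sex. In females 33 of 40 genes were higher at an unadjusted p below 0.05, against 12.1% of all genes, with a median of 1.01. In males 23 of 40 were lower and 0 higher, against 3.76% and 3.38% of all genes, with a median of -0.50. The difference between the sexes was above 0 in 39 of 40 genes with a median of 1.56, and 36 reached an unadjusted p below 0.05, against 14.4% of all genes. At the adjusted threshold 10 members were called, against 2.38% of 15093 genes (359 genes), all with a larger change in females. They were Ccnd1, Ccne1, Mcm4, Rrm1, Tyms, Ccna2, Mki67, Top2a, Bub1b and Kif11, with edgeR adjusted p-values between 0.0441 and 0.0486. All 10 calls are absent from the fit of all 16 mice, where these genes had adjusted p-values between 0.441 and 0.461. In each sex alone 0 genes of the whole table were called without these libraries. Markers of other cells differed between the sexes as well, and their part was not tested. All 8 Paneth cell genes had a larger change in females at an unadjusted p below 0.05 (median 2.31), and Mptx2, Mmp7 and Habp2 among them were called. For 8 of 10 B cell and follicle genes the change in females was the lower one at that p (median -5.63). The villus enterocyte list had a median of -1.21, with Alpi, Fabp1 and Apoa1 past that p, and the crypt base list one of 1.02, with Smoc2, Znrf3 and Cdca7 past it. Every Female Slfn3KO mouse was then above both Female WT mice in 35 of 40 members, against 19.2% of all genes. Every Male Slfn3KO mouse was below both Male WT mice in 27 of 40 and above them in 0, against 10.8% and 6.94% of all genes.

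The genes of G1 and S phase entry held both the strongest female member and the exception. Ccnd1 lies at chr7:144929931-144939869 on the minus strand (mm10, as the table gives it). It was at 192, 227, 174 and 160 CPM in the Female Slfn3KO mice 1 to 4 and at 106, 61.1, 135 and 78.0 CPM in the Female WT mice. Every Female Slfn3KO mouse was above every Female WT mouse, as for 4 of 40 members (Ccnd1, Ccnb2, Bub1b and Kif20a) and 5.67% of all genes. No member had every Female Slfn3KO mouse below, against 2.49% of all genes. The log2 fold change of Ccnd1 in females was 0.98 (SE 0.24, adjusted p = 0.236, edgeR quasi-likelihood with Benjamini-Hochberg). In males Ccnd1 was at 69.6, 119, 136 and 135 CPM in Slfn3KO and at 199, 158, 120 and 57.7 CPM in WT. These groups overlapped, as they did for every member in males (0 of 40 with all Slfn3KO mice above or all below, against 1.08% and 1.25% of all genes). Over both sexes the groups overlapped for all 40 members as well, against 0.0202% of all genes above and 0.00675% below. In males the log2 fold change of Ccnd1 was -0.21 (SE 0.36, adjusted p = 0.942, edgeR). Pooled, it was 0.39 (SE 0.28, adjusted p = 0.593, edgeR).

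Ccne1 and Ccne2 both encode cyclin E, the partner of Cdk2 at the start of S phase, and their values had opposite signs in each sex. Ccne1 was at 7.65 ± 1.18 CPM in Female Slfn3KO and 4.90 ± 1.95 CPM in Female WT, and at 4.92 ± 0.546 CPM in Male Slfn3KO and 6.22 ± 1.55 CPM in Male WT. Ccne2 (chr4:11191351-11204779, plus strand) was at 10.02, 8.32, 15.04 and 15.9 CPM in Female Slfn3KO mice 1 to 4 and at 18.6, 9.07, 12.5 and 14.6 CPM in Female WT. In males it was at 7.62, 15.7, 16.9 and 27.8 CPM in Slfn3KO and at 9.79, 13.8, 11.9 and 15.7 CPM in WT. The groups of Ccne2 overlapped in both sexes. Its log2 fold change was -0.16 in females (SE 0.27), 0.41 in males (SE 0.34) and 0.13 over both (SE 0.24, adjusted p = 0.837, edgeR), so that it was the only member lower in females. Male Slfn3KO 4 had the highest Ccne2 of all libraries, while its mean over the 40 genes, 4.14, was below that of Slfn3KO as a whole, 4.47.

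Cdk4 and Cdk2, the kinases, and E2f1, the transcription factor they release, lay between these. Cdk4 was at 73.6 ± 14.6 CPM in Female Slfn3KO against 50.5 ± 16.2 CPM in WT, and at 59.6 ± 8.33 CPM in Male Slfn3KO against 58.5 ± 20.5 CPM in WT. Its log2 fold change was 0.29 over both sexes (SE 0.19, adjusted p = 0.576, edgeR). That of Cdk2 was 0.36 in females and -0.025 in males, and that of E2f1 0.575 and -0.12. The role group as a whole had medians of 0.56 in females and -0.07 in males.

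**Figure D3:**
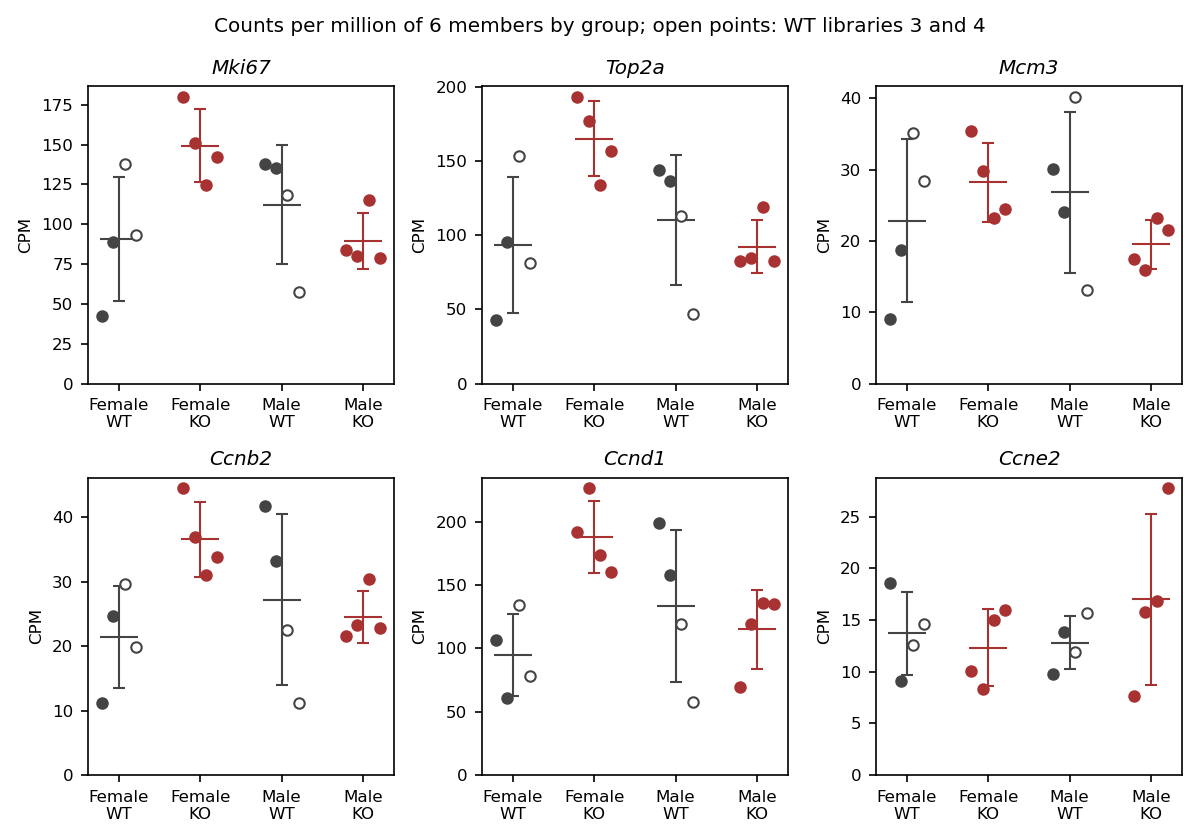
CPM of 6 members in the 4 groups, 1 point per mouse, with the mean as a line and the SD as bars; WT libraries 3 and 4 are open points. Ccnd1 and Ccnb2 separate Female Slfn3KO from Female WT, the other genes overlap, and in Female WT and Male WT the points spread widely.

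The helicase and replication fork genes had the lowest median in females, 0.41, and a median of -0.19 in males. Mcm2 to Mcm7 are the subunits of the replicative helicase. Mcm3 (chr1:20802968-20820312, minus strand) was at 35.4, 29.9, 23.2 and 24.4 CPM in Female Slfn3KO mice 1 to 4, and at 9.03, 18.7, 35.2 and 28.5 CPM in Female WT. In males it was at 17.5, 15.9, 23.3 and 21.5 CPM in Slfn3KO and at 30.1, 24.0, 40.2 and 13.2 CPM in WT. The WT libraries with the most Mcm3 were Male WT 3 and Female WT 3. Its change was 0.30 in females (SE 0.36) and -0.46 in males (SE 0.31), the lowest of the members in males. Without the WT libraries 3 and 4 the female value became 1.02 and the male value was -0.44. The other helicase subunits had log2 fold changes between 0.36 (Mcm6) and 0.49 (Mcm4) in females and between -0.38 (Mcm4) and -0.09 (Mcm7) in males.

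Gins2, part of the GINS complex that activates the helicase, had the largest pooled change of the 40 genes. It was at 10.9, 8.76, 5.41 and 6.74 CPM in Female Slfn3KO and at 1.90, 5.19, 6.19 and 3.31 CPM in Female WT. In Male Slfn3KO it was at 5.39, 4.99, 5.90 and 3.36 CPM, and in Male WT at 7.81, 5.46, 5.23 and 2.24 CPM. Groups overlapped in both sexes. Its log2 fold change was 0.93 in females (SE 0.38, adjusted p = 0.277, edgeR), -0.07 in males (SE 0.35) and 0.43 over both (SE 0.29, adjusted p = 0.582, edgeR).

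Cdt1, which loads the helicase with Cdc6, had the smallest pooled p of the members and was the only licensing or fork gene with a positive value in males. It was at 19.3 ± 1.57 CPM in Female Slfn3KO and 16.5 ± 3.20 CPM in Female WT. In males it was at 18.9 ± 2.03 CPM in Slfn3KO and 15.7 ± 4.61 CPM in WT. Its log2 values were 0.22 in females, 0.27 in males and 0.25 over both (SE 0.13, adjusted p = 0.451, edgeR). Pcna was at 32.0 ± 7.08 CPM in Female Slfn3KO and 28.0 ± 7.43 CPM in Female WT, and at 29.0 ± 7.83 CPM in Male Slfn3KO and 31.2 ± 7.66 CPM in Male WT. Its pooled log2 fold change was 0.05 (SE 0.17, adjusted p = 0.925, edgeR), with less difference between the sexes than most members. Cdc6 had a log2 fold change of 0.40 in females and -0.23 in males. At an unadjusted p below 0.05, 1 of the 10 licensing and fork genes, Gins2, was higher in females, against 8.58% of all genes.

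The genes of deoxynucleotide supply had medians of 0.63 in females and -0.28 in males. Tyms, thymidylate synthase, was at 17.6 ± 3.68 CPM in Female Slfn3KO and 10.1 ± 3.91 CPM in Female WT, and at 10.5 ± 1.66 CPM in Male Slfn3KO and 13.02 ± 5.81 CPM in Male WT. Its log2 fold change was 0.79 in females and -0.30 in males. Tk1, thymidine kinase, was at 20.9 ± 4.65 CPM in Female Slfn3KO and 12.96 ± 5.64 CPM in Female WT, and at 16.3 ± 2.36 CPM in Male Slfn3KO and 16.2 ± 5.94 CPM in Male WT. It had a pooled value of 0.35 (SE 0.23, adjusted p = 0.556, edgeR), the largest of this role, with 0.68 in females and 0.02 in males. Rrm2, the regulated subunit of ribonucleotide reductase, was at 20.9 ± 4.86 CPM in Female Slfn3KO and 15.4 ± 6.64 CPM in Female WT, and at 12.8 ± 1.92 CPM in Male Slfn3KO and 16.8 ± 5.52 CPM in Male WT. It had the smallest pooled value above 0 at 0.02 (SE 0.23, adjusted p = 0.975, edgeR), made of 0.43 in females and -0.39 in males. Rrm1, the large subunit, had 0.59 and -0.26.

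The genes of G2 and mitosis entry had the highest median in females, at 0.76, and a median of -0.22 in males. At an unadjusted p below 0.05, 4 of these 8 were higher in females, against 8.58% of all genes. They were Ccna2, Ccnb1, Ccnb2 and Cdk1. Ccnb2 (chr9:70407689-70421554, minus strand) was at 44.5, 36.9, 31.0 and 33.8 CPM in Female Slfn3KO mice 1 to 4 and at 11.2, 24.7, 29.7 and 19.8 CPM in Female WT, without overlap. In males it was at 21.6, 23.2, 30.4 and 22.8 CPM in Slfn3KO and at 41.8, 33.1, 22.5 and 11.1 CPM in WT, where both the highest and the lowest values belonged to WT. The log2 fold change was 0.77 in females (SE 0.27, adjusted p = 0.259, edgeR), -0.14 in males (SE 0.35) and 0.32 over both (SE 0.26, adjusted p = 0.643, edgeR). Ccna2, the cyclin of S phase and early mitosis, had 0.82 in females and -0.36 in males.

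Foxm1 and Mybl2, the transcription factors of the mitotic wave, had values near those of the mitotic genes. Foxm1 was at 23.8 ± 5.32 CPM in Female Slfn3KO and 13.96 ± 6.24 CPM in Female WT, and at 14.03 ± 2.12 CPM in Male Slfn3KO and 16.3 ± 6.65 CPM in Male WT. Its log2 fold change was 0.76 in females and -0.21 in males, and that of Mybl2 0.72 and -0.22. Aurka, the kinase of the spindle poles, was at 24.3 ± 4.90 CPM in Female Slfn3KO and 16.0 ± 6.03 CPM in Female WT, and at 13.8 ± 1.97 CPM in Male Slfn3KO and 17.5 ± 6.69 CPM in Male WT. It had the smallest pooled value of this role at 0.13 (SE 0.24, adjusted p = 0.8286, edgeR), with 0.59 in females and -0.34 in males. Plk1, the kinase that triggers mitotic entry, had 0.65 and -0.21.

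Among the 12 spindle, checkpoint and exit genes, 7 were higher in females at an unadjusted p below 0.05, against 8.58% of all genes. Mki67 (chr7:135689788-135716379, minus strand) was at 180, 151, 125 and 142 CPM in Female Slfn3KO mice 1 to 4, and at 42.7, 88.7, 138 and 93.0 CPM in Female WT. Only Female WT 3 reached into the range of the Slfn3KO mice. In males Mki67 was at 83.7, 79.8, 115 and 78.9 CPM in Slfn3KO and at 138, 135, 118 and 57.5 CPM in WT. There 3 of 4 WT mice lay above every Slfn3KO mouse and Male WT 4 lay below them all. The log2 fold change was 0.72 in females (SE 0.31, adjusted p = 0.288, edgeR), -0.32 in males (SE 0.27, adjusted p = 0.925, edgeR) and 0.20 over both (SE 0.25, adjusted p = 0.755, edgeR). The difference between the sexes was 1.04 (SE 0.43, adjusted p = 0.441, edgeR), and 1.78 without the WT libraries 3 and 4 (adjusted p = 0.0441, edgeR).

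Top2a (chr11:98992943-99024189, minus strand) was at 193, 177, 134 and 157 CPM in Female Slfn3KO and at 42.6, 95.6, 153 and 81.5 CPM in Female WT. In Male Slfn3KO it was at 83.0, 84.7, 119 and 82.8 CPM and in Male WT at 144, 137, 113 and 47.2 CPM. The log2 fold change was 0.82 in females (SE 0.34, adjusted p = 0.278, edgeR), -0.25 in males (SE 0.31) and 0.29 over both (SE 0.28, adjusted p = 0.690, edgeR). Ube2c, the ubiquitin-conjugating enzyme of the complex that ends mitosis, was at 46.3 ± 11.6 CPM in Female Slfn3KO and 26.5 ± 11.2 CPM in Female WT, and at 30.2 ± 6.45 CPM in Male Slfn3KO and 32.0 ± 15.5 CPM in Male WT. It had the largest pooled value of this role at 0.37 (SE 0.27, adjusted p = 0.604, edgeR). Birc5, survivin, was at 44.8 ± 10.2 CPM in Female Slfn3KO and 29.3 ± 11.5 CPM in Female WT, and at 29.7 ± 4.08 CPM in Male Slfn3KO and 36.6 ± 16.5 CPM in Male WT, and had the smallest pooled value at 0.16 (SE 0.25, adjusted p = 0.798, edgeR). Bub1b, a checkpoint protein, was at 36.0, 29.2, 25.4 and 26.1 CPM in Female Slfn3KO and at 9.13, 19.3, 23.5 and 17.04 CPM in Female WT, without overlap. Stmn1, which regulates microtubules, had the lowest level in counts, from 26 to 148 reads per library.

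The rest of the cell cycle machinery, in lists chosen for function, had medians near those of the members. Of 34 other S phase genes, 28 were above 0 over both sexes with a median log2 fold change of 0.15, and 1 was higher at an unadjusted p below 0.05, against 4.84% of all genes. That gene was Cdca7 (0.62, SE 0.23, adjusted p = 0.333, edgeR), which is also in the list of crypt base genes, followed by E2f8 at 0.45, a repressor of the E2F family. The lowest were Cdc7, the kinase that fires origins, at -0.18 and E2f3 at -0.15. Of 36 other mitotic genes, 34 were above 0 with a median of 0.20, and none reached an unadjusted p below 0.05. Cenpf, a kinetochore protein, was highest at 0.45 with Anln, which closes the cleavage furrow, at 0.43, and Pttg1, securin, and Cdc25b were lowest at -0.14 and -0.13. In females 6 of the S phase and 16 of the mitotic genes were higher at an unadjusted p below 0.05 and 1 S phase gene, E2f3, was lower, against 8.58% of all genes higher and 8.56% lower. In males 1 S phase gene, Cdc7, was lower, against 1.98% of all genes.

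Pooled over the sexes, inhibitors of the cycle had small values in both directions. Of 17 inhibitors and pocket proteins, 12 were below 0 over both sexes, with a median of -0.08, beside 7514 of all 14822 genes below 0, and 2 were lower at an unadjusted p below 0.05, against 7.1% of all genes. Of these, 0 were lower at that p without the WT libraries 3 and 4, where the median was -0.09. In males the median was -0.0052, and 0.04 without these libraries, with 12 of 17 above 0. In females the median was -0.16, with values between -0.68 and 0.35. There 3 of 17 were lower and 0 higher at an unadjusted p below 0.05, against 8.56% and 8.58% of all genes. Without these libraries the female median was -0.06, with 4 lower and 1 higher, against 11.8% and 12.1% of all genes. Over both sexes the 2 lower were Btg1, an antiproliferative gene of resting cells (-0.31, SE 0.12, adjusted p = 0.336, edgeR), and Cdkn2d. In that comparison Ccng2 and Cdkn2a were lowest in value at -0.36 and -0.32, and Trp53 and Cdkn2c highest at 0.08 and 0.07. In the list of other D cyclins and kinases, which also holds Ccnh and Cdk7, Cdk6 at 0.55 and Ccnd2 at 0.25 were higher at an unadjusted p below 0.05. Ccnd3, the D cyclin of lymphocytes, was lower at -0.29, against 4.84% of all genes higher and 7.1% lower. Cdk7 was at 0.08. Without the WT libraries 3 and 4 Ccnd3 was at -0.08 and Cdk6 at 0.56.

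Of Lgr5 and Cd79a, Lgr5 was the measure that the members followed. Lgr5 (chr10:115450311-115587780, minus strand) was at 14.04, 17.8, 8.69 and 11.5 CPM in Female Slfn3KO mice 1 to 4, and at 0.499, 6.42, 6.59 and 3.27 CPM in Female WT. In males it was at 12.6, 6.53, 14.6 and 5.20 CPM in Slfn3KO and at 10.2, 6.64, 3.06 and 3.22 CPM in WT. All 4 Female Slfn3KO mice were above the 4 Female WT mice. Across 16 mice the members' log2 CPM rose with that of Lgr5, with a median r of 0.75. The adjusted permutation p was below 0.05 in 35 of 40 by Pearson's r and in 28 of 40 by Spearman's rho (80 relations in the family, 100000 resamples, two-sided). These relations were computed for the members only, so no share of all genes stands beside them. Relations of the members to markers of Paneth or villus cells were not computed. Tk1 had the highest r, at 0.91, with rho of 0.89 (adjusted permutation p = 0.00032 and p = 0.0008). Mki67 had r of 0.77 and rho of 0.67 (adjusted permutation p = 0.0034 and p = 0.0212). Ccne2 had r of -0.45 and rho of -0.37 (adjusted permutation p = 0.167 and p = 0.275).

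The relation to Lgr5 leaned on Female WT 1, in which Lgr5 was lowest. Without that library 16 of 40 genes passed. Without the 2 libraries farthest from the median of Lgr5, Female WT 1 and Female Slfn3KO 2, 8 passed, with a median r of 0.55, and for most members the relation rests on those libraries. The 8 were Cdk4, Gins2, Tk1, Ccnb2, Cdk1, Cdc20, Ube2c and Stmn1. For Mki67 r was then 0.53 and for Mcm3 0.05. Within WT the median r was 0.81 and 27 of 40 genes passed (exact test over all 40320 pairings of 8 mice). Within Slfn3KO the median was 0.67 and 39 of 40 values were above 0, but none passed, with a smallest adjusted p of 0.0972 in the exact test.

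No relation of a member to Cd79a passed the same test. Cd79a (chr7:24897381-24902197, plus strand) was at 3.73, 1.75, 5.18 and 1.38 CPM in Female Slfn3KO mice 1 to 4 and at 2.25, 13.3, 50.8 and 56.3 CPM in Female WT. In males it was at 0.257, 1.62, 10.96 and 14.9 CPM in Slfn3KO and at 0.921, 0.749, 90.1 and 18.2 CPM in WT. Of 40 genes, 0 had an adjusted permutation p below 0.05 with Cd79a, by r or by rho. Pearson's r was between -0.35 (Ube2c) and 0.31 (Mcm3) with a median of -0.10, and the smallest adjusted p was 0.348. The median was -0.01 within WT, 0.07 within Slfn3KO and -0.20 without the 2 libraries farthest from the median of Cd79a, and 0 of 40 passed in each of these sets by Pearson's r. For Mki67 r was -0.07 and rho -0.19 (adjusted permutation p = 0.851 and p = 0.606).

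**Figure D4:**
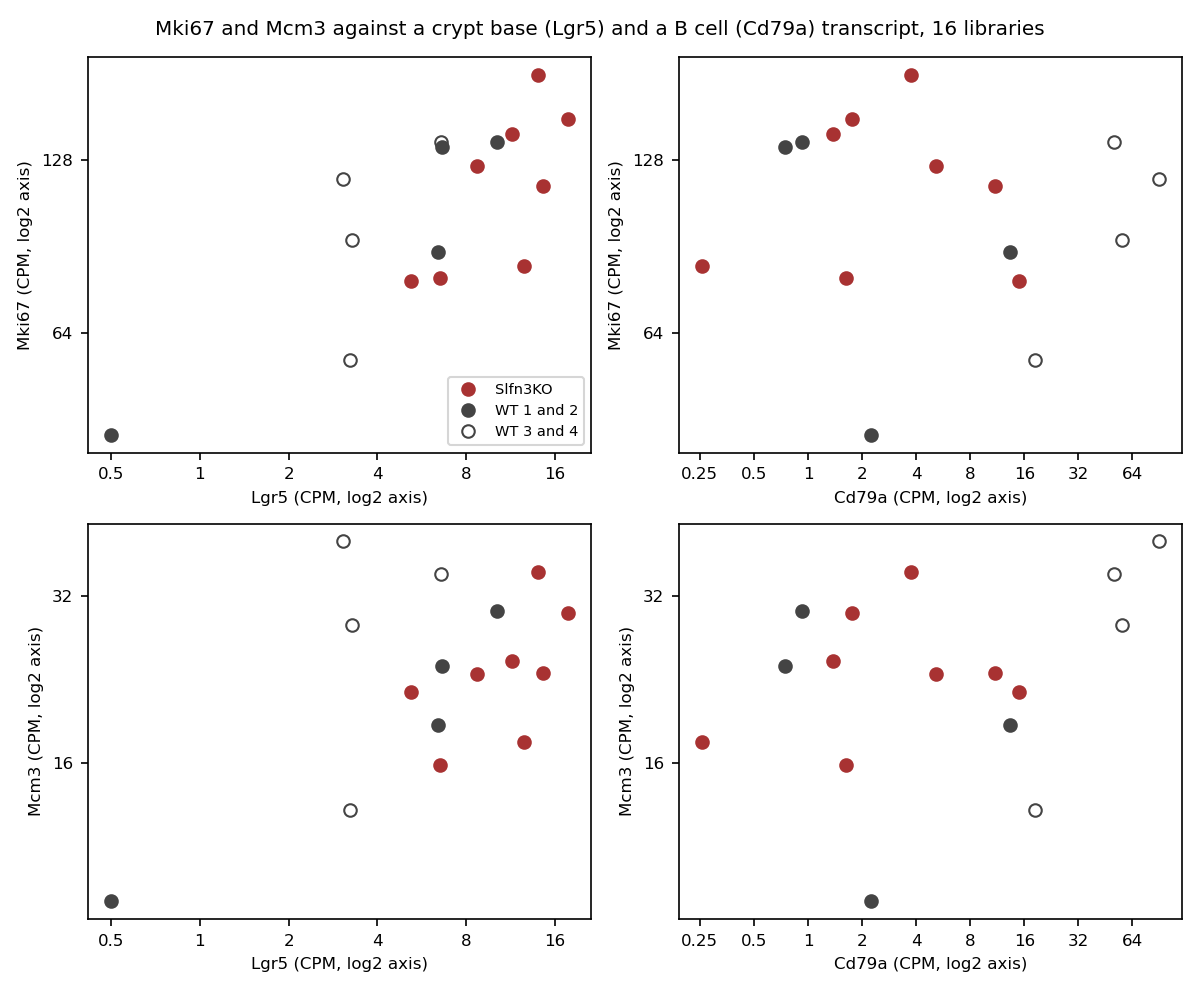
CPM of Mki67 (top) and Mcm3 (bottom) against Lgr5 (left) and Cd79a (right), log2 axes, 1 point per mouse, Slfn3KO in red, WT 1 and 2 filled dark grey, WT 3 and 4 open. Mki67 climbs with Lgr5 (r of 0.77) and has r of -0.07 with Cd79a, and the 3 points with the most Cd79a, all WT 3 or 4, include the 2 highest WT values of Mcm3.

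Both markers were then put in 1 fit with sex and genotype, and the slope on each was read with the other held. Per doubling of Lgr5, 39 of 40 members had a positive slope, with a median of 0.43 log2 units, and 36 passed at an adjusted p below 0.05 (edgeR, Benjamini-Hochberg over all genes), against 17% of all genes with a positive slope past that threshold. Stmn1 had 0.52 (SE 0.068), Tk1 0.43 (SE 0.062) and Mki67 0.46 (SE 0.089). Ccne2 was the only member with a negative slope, -0.30 (SE 0.089, adjusted p = 0.0224, edgeR), against 12.6% of all genes. Ccnd1, Cdt1 and Pcna did not pass, with slopes of 0.18, 0.13 and 0.19 (adjusted p = 0.344, 0.125 and 0.0843, edgeR). The fit held the same libraries as the relations above. Its slopes on Lgr5 were not computed without Female WT 1, so how far they lean on that library was not tested.

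Per doubling of Cd79a, 26 of 40 slopes were above 0, with a median of 0.02, and 0 passed, against 7.4% of all genes with a positive and 0.466% with a negative slope past the threshold. The largest were those of Mcm3, 0.12 (SE 0.042, adjusted p = 0.104, edgeR), Mcm4, 0.096 (SE 0.037, adjusted p = 0.149, edgeR), and Mybl2, 0.095 (SE 0.042, adjusted p = 0.225, edgeR). Without the WT libraries 3 and 4 these became 0.04, 0.03 and 0.0021. This fit was added after the data had been seen.

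**Figure D5:**
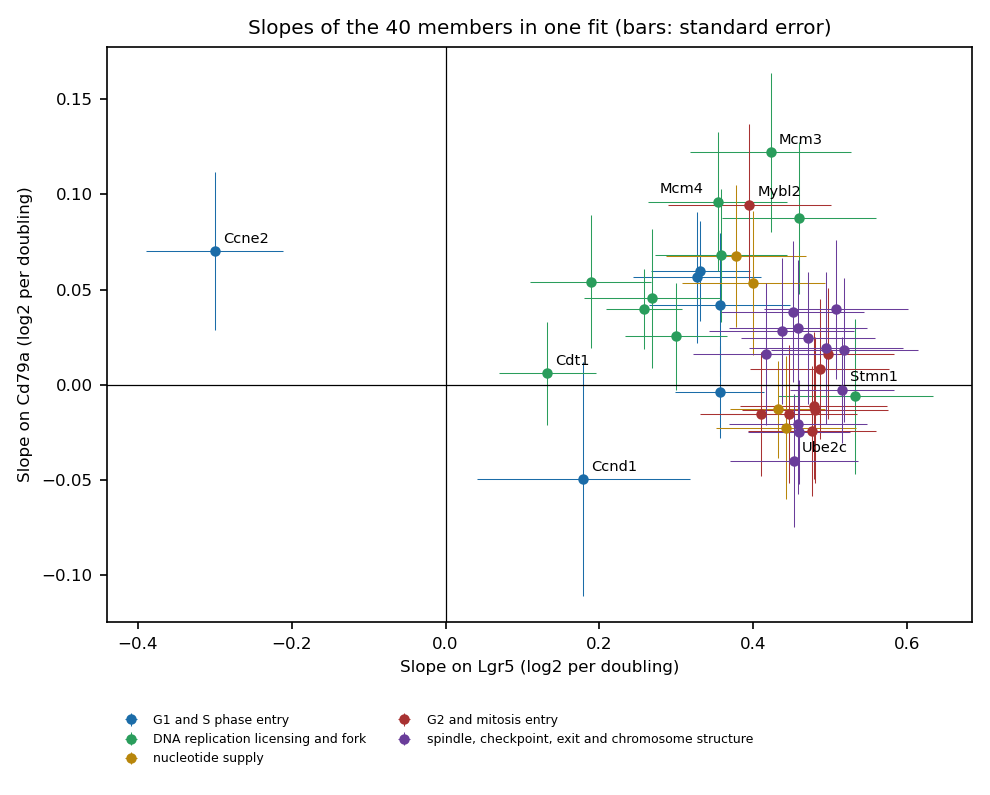
Slope of each of the 40 genes on Lgr5 (x, log2 units per doubling) and on Cd79a (y, log2 units per doubling) in 1 fit, coloured by role, bars the standard error. Most genes lie around the medians of 0.43 on x and 0.02 on y, with Mcm3 and Mcm4 highest on y and Ccne2 alone at the left.

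The level of each gene relative to the set was read against Cd79a, a measure also added after the data had been seen. When each gene was taken relative to the mean of the 40 in the same library, 5 genes had a positive relation to Cd79a with an adjusted permutation p below 0.05 by Pearson's r and 5 a negative one (adjusted over the 40). These values sum to 0 in each library, so that positive and negative relations must offset each other, and no test compared the role groups. The positive ones were Mcm2, Mcm3, Mcm4, Mcm5 and Rrm2, and the negative ones Ube2c, Tyms, Cdk1, Cdc20 and Ccnb2. By rho Mcm2, Mcm5 and Ccnb2 did not pass (adjusted permutation p = 0.0542, p = 0.132 and p = 0.0555). The helicase genes Mcm6 and Mcm7 did not pass by either measure, with r of 0.25 and 0.15. Mcm4 had r of 0.80 and rho of 0.77 (adjusted permutation p = 0.0026 and p = 0.0111), and Ube2c r of -0.75 and rho of -0.71 (adjusted permutation p = 0.00813 and p = 0.021). The relative level of Mcm3 was 0.42, 0.74 and 0.90 log2 units in Female WT 3, Female WT 4 and Male WT 3, where Cd79a was above 50 CPM, and between -0.12 and 0.29 in the other 13 libraries. By Pearson's r 0 of the 40 relations passed within WT, within Slfn3KO and without the WT libraries 3 and 4, and by rho Mcm2, Mcm4, Rrm2 and Ube2c passed within WT (exact test). Without the 2 libraries farthest from the median of Cd79a, Mcm4 had r of 0.72 and Ube2c -0.69. For Mcm4 r was 0.82 within WT, 0.63 within Slfn3KO and 0.45 without the WT libraries 3 and 4.

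Over both sexes, markers of the cell types around the dividing cells differed between the genotypes at an unadjusted p only, and their part in the members' levels was not tested. Here 8 of 10 crypt base genes were higher in Slfn3KO at an unadjusted p below 0.05, with a median log2 fold change of 0.71, and so were 6 of 8 Paneth cell genes, with a median of 1.01. These shares stand against 4.84% of all genes higher and 7.1% lower. All 10 B cell and follicle genes were lower, with a median of -3.00, and 4 of 9 tested germinal centre genes were lower (S1pr2, Mybl1, Basp1 and Tnfsf8), with a median of -1.43. Of 10 villus enterocyte genes none reached that p, and the median was -0.41. Without the WT libraries 3 and 4, 2 crypt base genes (Rnf43 and Cdca7), 1 Paneth cell gene (Ang4) and 1 germinal centre gene were higher at that p. In that fit 0 B cell and 0 germinal centre genes were lower, and 2 villus enterocyte genes (Fabp1 and Dpp4) were lower. These counts stand against 2.7% of all genes higher and 3.1% lower. The medians were then 0.47 for the crypt base, 0.71 for Paneth cells, 0.12 for B cells, 0.03 for the germinal centre and -0.60 for villus enterocytes. With all libraries kept, T cell, plasma cell and myeloid genes had medians of -0.51, -0.10 and -0.18. At that p 2 (Cd3d and Cd4), 1 (Irf4) and 1 (Lyz2) of 8 were lower. Of 8 smooth muscle genes 0 passed with all libraries, with a median of 0.47. Leaving out the WT libraries 3 and 4 gave medians of -0.37, 0.40, 0.17 and 1.53 for these lists in the same order. At that p 0 genes of these lists were then lower, and 1 plasma cell and 1 smooth muscle gene were higher.

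By library, the mean log2 CPM of the crypt base list was 2.75 in Female WT 1, the mouse lowest in the members, and between 3.36 and 5.11 in the others. That of the Paneth cell list was 4.78 in Female WT 1, the lowest, while that of the villus list was 11.3 there, the highest of 16. The mean of the germinal centre list was 2.79, 2.73 and 3.14 in Female WT 3, Female WT 4 and Male WT 3 and at most 2.12 elsewhere. In those 3 libraries the mean of the 40 members was 4.72, 4.10 and 4.43, which lies inside the range of the other libraries.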

How the data were processed

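RNA of ileum mucosa from 16 mice was sequenced as 50-base single reads from a stranded kit. The authors trimmed the reads with cutadapt, aligned them to mm10 with STAR and deposited unnormalized gene counts for the whole series in a single file, made with featureCounts 1.4.6 per the file headers, whereas the study's methods name HTSeq. DESeq2 1.22.2 is named in the submitters' processing notes. Of 46078 gene identifiers, 45143 had a symbol, and 0 pairs of libraries held identical counts.

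From the counts, edgeR 4.0.16 in R 4.3.3 gave a robust quasi-likelihood test with TMM factors and its filter on low counts by group. Genotype was tested over both sexes with sex as covariate, within each labelled sex, and as the difference between the sexes. P-values were adjusted by Benjamini-Hochberg over all genes tested, and a call needed an adjusted p below 0.05 and a 1.5-fold change. CPM and log2 CPM (prior count 2) were computed from the library totals scaled by the TMM factors, and RPKM from CPM and exon length. DESeq2 1.42.0, other scaling, other filters, a replicate block, covariates and left-out libraries were alternatives. Relations used two-sided permutation tests (scipy 1.17.1, numpy 2.4.6, pandas 2.3.3). Steps across many genes were tested on simulated data. Any member could be named by its range. By rule, full statistics went to Mki67, Top2a, Pcna and Ccnd1, the members with the largest and smallest absolute pooled log2 fold change in each of 5 role groups, members past the threshold in any comparison and the 5 with the smallest pooled p, 14 members in all. Of the other cell cycle lists the 2 highest and 2 lowest were named, and Slfn3, Cd79a and Lgr5. Mcm3, Bub1b and other genes given more than a range or a count were chosen after their values were seen. The members and lists were chosen with earlier results of these data known. Promoters came from RefSeq on GRCm38.p6.

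Replicate numbers were checked for pairing. In males, the deviations of same-numbered Slfn3KO and WT mice correlated at 0.229, 0.318, 0.518 and 0.138 across genes, all over 0.1. Differently numbered mice were not compared, and the labels give no source for a pairing, so whether the numbers are pairs was not settled. The main male fit held no pairing term. A fit with the replicate number as a block called 0 genes in males, as did the main fit. At an unadjusted p below 0.05 it held 936 genes, against 542 in the main fit (edgeR).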

Additional observations from a re-analysis of the deposited data

Results flagged for a closer look

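In 168 groups of 4 mice, 5 held a value whose gap to the nearest other mouse passed Dixon's critical share of the group's range (2.98%, where chance gives about 1 in 20). Male Slfn3KO 3 stood above the other Male Slfn3KO mice in Ccna2 (61.1 CPM, nearest 45.1), Mki67 (115 CPM, nearest 83.7) and Top2a (119 CPM, nearest 84.7). E2f1 was low in Male Slfn3KO 2 at 3.69 CPM, with the nearest mouse at 4.84. Cdc6 was low in Male WT 4 at 3.59 CPM, with the nearest mouse at 6.47.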

How the results depend on the processing

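With 4 mice a group, small changes are out of reach. DESeq2 called 54 genes over both sexes, 14 in males, 506 in females and 19 for the difference between the sexes, where edgeR called 0. The cause was not tested. Lgr5 went with genotype in females, so a fit with it as covariate takes up part of any genotype difference. With Lgr5 as covariate, 3 members were lower and 1 higher, the median was -0.32, and the direction turned for Mki67 (-0.38), Top2a (-0.33), Pcna (-0.19), Gins2 (-0.26), Tk1 (-0.20), Rrm2 (-0.44), Ccnb2 (-0.24), Aurka (-0.40), Ube2c (-0.23), Birc5 (-0.43) and Cdk4 (-0.18). Without the WT libraries 3 and 4, Aurka was at -0.031 and Birc5 at -0.0033 over both sexes, and the counts of members at an unadjusted p below 0.05 were 1 higher over both sexes, 23 lower in males, 33 higher in females and 36 larger in females than in males, where 10 members and 359 genes were called. With the replicate block, 1 gene was called over both sexes and 3 members (Ccnd1, Ccnb2 and Bub1b) were higher in females at an unadjusted p below 0.05; it changed no other call. In females, same-numbered mice had correlations of -0.364, 0.143, -0.337 and -0.114. Relations to Lgr5 passed in 0 members within Slfn3KO and in 8 without the 2 farthest libraries.

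Leaving out 1 library at a time gave 0 to 2 members higher over both sexes, 0 to 19 lower in males, 1 to 34 higher in females, 1 to 32 for the difference between the sexes and 16 to 37 related to Lgr5. The pooled change then lay between -0.052 and 0.121 for Pcna, -0.113 and 0.119 for Rrm2, and -0.059 and 0.233 for Ccne2. The medians over the members kept their sign, from 0.080 to 0.298 over both sexes, -0.448 to -0.055 in males and 0.408 to 0.923 in females.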
